A study of Homo sapiens with 16 samples.

Results

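The genes of the cytosolic ribosomal proteins were taken as those whose name is RPL, RPS or RPLP followed by a number and at most 1 letter A, X or L, together with *RPSA*. The count tables list 80 such genes among 60357, 48 for the large and 32 for the small ribosomal subunit. Kasumi-1 and SKNO-1, human lines of acute myeloid leukaemia with a t(8;21) translocation, the source of the RUNX1/ETO fusion, were exposed for 24 h to 2 µg/ml of lipid nanoparticles (LNPs) and harvested on day 3. The LNPs held either siRE-mod, a chemically modified siRNA against the fusion site of *RUNX1/ETO*, or siMM-mod, its mismatch control. SKNO-1 cells grew with GM-CSF and Kasumi-1 cells without it. Each line has 3 libraries labelled siMM-mod and 3 labelled siRE-mod, 12 in all, and all 12 received LNPs, so no untreated cells are included. The labels do not say whether replicates were separate cultures, and p-values then measure only the spread between these libraries.

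A ribosome joins a large and a small subunit, each built from ribosomal RNA and 1 copy of most of its proteins, so that cells make these proteins in matched amounts. In growing cells their mRNAs are among the most abundant. Many of them begin with a cytosine followed by a run of pyrimidines, the 5′ terminal oligopyrimidine (TOP) motif, through which mTOR and the RNA-binding protein LARP1 control their translation and stability. Fast-dividing leukaemia cells depend on this supply, and the loss of single proteins of the small subunit, such as RPS14 and RPS19, is known from bone marrow failure.

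The start of the transcript is shown for 8 members, because the windows set the shared motif beside genes that later differ in their values. Each window holds 10 bases before the RefSeq start and 16 bases from it on, in GRCh38.p14 and 5′ to 3′ on the transcribed strand, and capitals mark the longest run of C and T that begins with C within 10 bases of the start and has at least 5 letters. The first 3 genes are among those with the lowest fold changes, the next 3 among those nearer to no change, and the last pair is a gene and its paralog.
RPS13 (chr11:17077652-17077677, minus strand): ctctcgCTCTCCTTTCgttgcctgat
RPL27A (chr11:8682782-8682807, plus strand): gaaggCCTTCCTTTTTCgtctgggct
RPLP2 (chr11:809957-809982, plus strand): tcggcgCCTTCCTTTTCCTCCCTgtc
RPS6 (chr9:19380221-19380246, minus strand): gaagttggCCCTCTTTTCCgtggcgc
RPL21 (chr13:27251548-27251573, plus strand): ccgCCTCTTTCCTTTCggccggaacc
RPL35A (chr3:197950180-197950205, plus strand): gggcctcgtCCTTCTCTTaccgccat
RPS27 (chr1:153990752-153990777, plus strand): cgctttcgCTCCTTTCCggcggtgac
RPS27L (chr15:63157462-63157487, minus strand): gatgccgagcgcagatcgcttgcagc
Of the 80 members, 63 were matched by symbol to a RefSeq start, and 57 of these (90.5%) had such a run, against 38.4% of all 27305 genes with a RefSeq start. On the opposite strand the shares were 20.6% of the members and 36.2% of all genes. The 6 matched members without a run of 5 letters are *RPS29*, *RPS4X*, *RPL27*, *RPL17*, *RPS27L* and *RPL10L*. They include low members, since the log2 fold changes of siRE-mod over siMM-mod labels were −1.58 for *RPS29*, −1.17 for *RPS4X* and −0.87 for *RPL27* in Kasumi-1, beside −0.36 for *RPL17* and 0.05 for *RPS27L*. At these RefSeq starts the run was thus present in members both low and nearer to no change, and absent from members of both kinds. Whether transcripts of these cells begin at these starts was not tested.

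The 12 libraries held between 60559466 and 147990959 counts on genes. *RUNX1T1*, which encodes the ETO part of the fusion and so checks the labels, lay at 296, 92.7 and 161 normalized CPM (counts scaled to a common library size, with TMM factors) in the Kasumi-1 libraries 1, 2 and 3 labelled siMM-mod and at 44.3, 159 and 37.2 in the 3 siRE-mod ones. The SKNO-1 levels were 329, 297 and 127 with siMM-mod and 123, 164 and 40.3 with siRE-mod labels. The labelled groups overlap for it in both lines, so every direction given here is that of the libraries as labelled. *CD34*, a surface marker of haematopoietic progenitors, was at 419.6, 152 and 0.141 normalized CPM in the Kasumi-1 siMM-mod libraries and at 0.577, 0.107 and 0.625 in the siRE-mod ones. In SKNO-1 it was at 420.1, 416 and 118 and at 117, 0.123 and 0.443. Thus 6 libraries hold *CD34* above 100 normalized CPM and 6 below 1. Among the siMM-mod libraries only Kasumi-1 replicate 3 lacks *CD34*, and among the siRE-mod libraries only SKNO-1 replicate 1 holds it. Both lines are found on either side of this split. *CD34* is not the target of the siRNA, and by *RUNX1T1* other libraries stand out. Kasumi-1 siMM-mod replicate 2, at 92.7, lay below siRE-mod replicate 2 of that line, at 159. SKNO-1 siRE-mod replicate 2, at 164, lay above siMM-mod replicate 3, at 127. *EPCAM*, an epithelial marker, splits the libraries the same way, with 77.4 to 104.1 normalized CPM in the 6 libraries that hold *CD34* and at most 0.0108 in the others. Of 8 myeloid markers, 7 reached 1 normalized CPM in every library and *CD34* in 6, with *MPO* at 1778 to 22611. Of 15 markers of T, B, erythroid, stromal and epithelial cells, all but *EPCAM* stayed at or below 2.90 normalized CPM.

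Ribosomal protein genes took 11.9% to 20.9% of all counts in a library. In Kasumi-1 the share was 18.2, 20.9 and 17.8% in the libraries labelled siMM-mod, a mean of 18.98% ± 1.65 (SD, n = 3), and 11.9, 12.9 and 12.4% in the siRE-mod ones, a mean of 12.4% ± 0.484 (SD, n = 3). In SKNO-1 it was 17.8, 20.5 and 16.8% under siMM-mod, a mean of 18.4% ± 1.92 (SD, n = 3), and 16.1, 13.4 and 12.5% under siRE-mod, a mean of 14.01% ± 1.895 (SD, n = 3). Every siRE-mod library lay below every siMM-mod library of its own line. The 95% Wilson interval of a share reached at most 0.0094 percentage points to either side and covers counting error only, so the differences between libraries exceed it. In bulk RNA, fewer cells of a type and less RNA per cell cannot be told apart. Large-subunit genes held 1.36 to 1.46 times the counts of small-subunit genes in every library, a narrower range than that of the share. In Kasumi-1 this ratio was 1.40 ± 0.0119 (SD, n = 3) with siMM-mod and 1.45 ± 0.0118 (SD, n = 3) with siRE-mod labels, and every siRE-mod library lay above every siMM-mod library. In SKNO-1 it was 1.39 ± 0.0331 (SD, n = 3) and 1.43 ± 0.0373 (SD, n = 3), and the groups overlap.

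**Figure D1:**
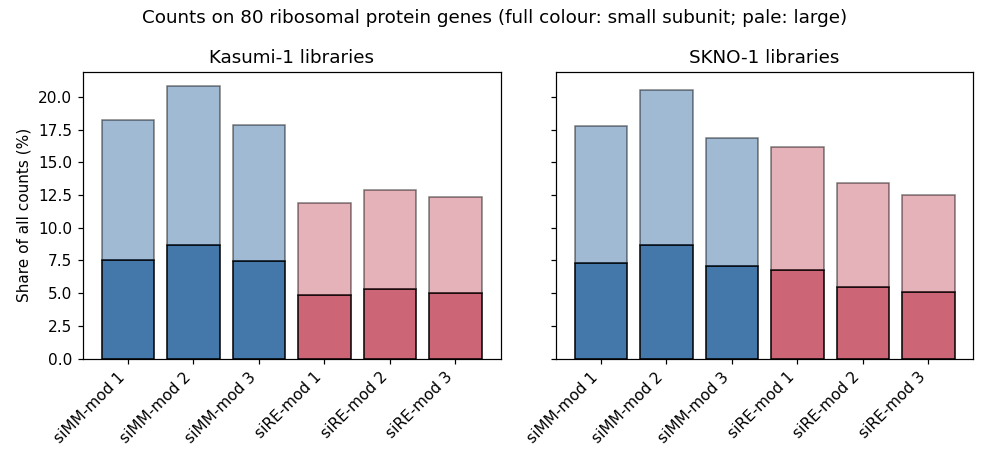
Share of all counts (y, %) on the 80 ribosomal protein genes in each library (x), with small-subunit genes in full colour below and large-subunit genes pale above, siMM-mod labels in blue and siRE-mod labels in red. The siRE-mod bars reach 11.9% to 12.9% in Kasumi-1 and 12.5% to 16.1% in SKNO-1, and the siMM-mod bars 16.8% to 20.9%.

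Read by *CD34*, the share was 16.1% to 20.9% in the 6 libraries that hold it and 11.9% to 13.4% in 5 of the 6 that do not. The exception is Kasumi-1 siMM-mod replicate 3, with 17.8% at 0.14 normalized CPM of *CD34*. Over all libraries together, *RUNX1T1* gave no such order. At 161, 159 and 164 normalized CPM of *RUNX1T1* stood Kasumi-1 siMM-mod replicate 3 with 17.8%, Kasumi-1 siRE-mod replicate 2 with 12.9% and SKNO-1 siRE-mod replicate 2 with 13.4%. The library with the highest share, Kasumi-1 siMM-mod replicate 2, had only 92.7 normalized CPM of *RUNX1T1*. The 3 libraries with the least *RUNX1T1* were Kasumi-1 siRE-mod replicates 1 and 3 and SKNO-1 siRE-mod replicate 3, at 37.2 to 44.3 normalized CPM. They do not hold *CD34*, and their shares of 11.9% to 12.5% lay below the 12.9% to 17.8% of the others without it. Of the 6 that hold *CD34*, 3 siMM-mod libraries lay at 296 to 329 normalized CPM of *RUNX1T1*, with shares of 17.8% to 20.5%. The other 3 lay at 92.7 to 127, with shares of 16.1% to 20.9%, so these shares overlap. They are Kasumi-1 siMM-mod replicate 2, SKNO-1 siMM-mod replicate 3 and SKNO-1 siRE-mod replicate 1. The division by *RUNX1T1* thus crosses the siRNA labels among libraries with *CD34*, and also among those without it. These readings are a description, and no groups were formed from them.

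**Figure D2:**
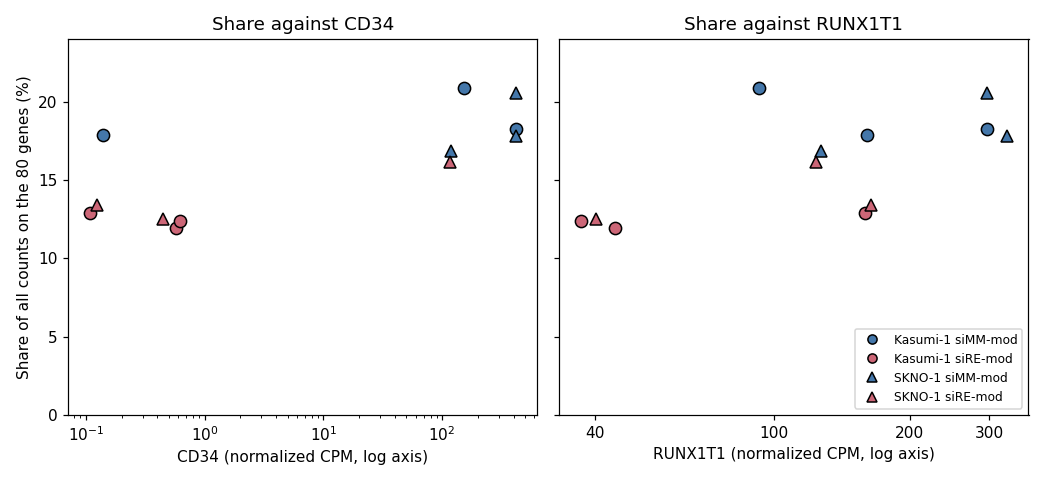
Share of all counts on the 80 genes (y, %) against *CD34* (left) and *RUNX1T1* (right), both in normalized CPM on log axes, with circles for Kasumi-1, triangles for SKNO-1, blue for siMM-mod and red for siRE-mod. At *CD34* below 1 normalized CPM a single blue circle, Kasumi-1 siMM-mod replicate 3, stands at 17.8% above 5 red points at 11.9% to 13.4%.

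Across the 78 members with at least 600 reads over the 12 libraries, the nearest library belonged to another labelled group for 7 of the 12 libraries. SKNO-1 siMM-mod replicate 3 and SKNO-1 siRE-mod replicate 1 differed by a median of 0.0419 in log2 CPM per gene, the smallest value of any pair, although their labels differ. Kasumi-1 siMM-mod replicate 2 was nearest to SKNO-1 siMM-mod replicate 2 at 0.154, and Kasumi-1 siRE-mod replicate 2 to SKNO-1 siRE-mod replicate 3 at 0.126. Counts of no pair agreed within sampling noise, since the chi-square per gene was at least 26.2, so each library was kept as 1 sample.

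**Figure D3:**
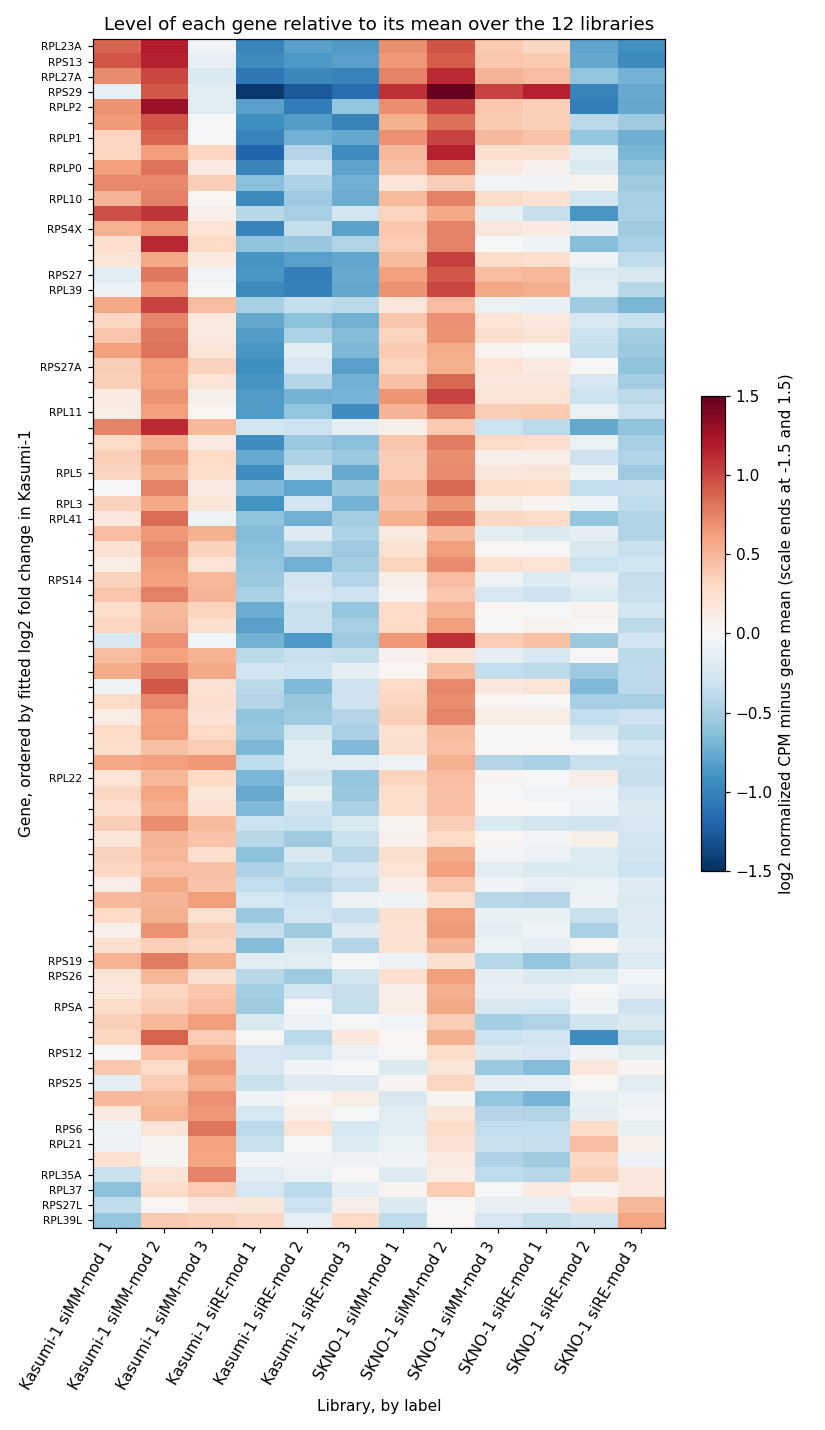
Level of each of the 78 tested genes (rows) in each library (columns), as log2 normalized CPM minus the gene's own mean over the 12 libraries, with red above and blue below the mean and names on a subset of rows. Most rows are blue in the Kasumi-1 siRE-mod columns and in SKNO-1 siRE-mod replicates 2 and 3, while SKNO-1 siRE-mod replicate 1 has the colours of SKNO-1 siMM-mod replicate 3.

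No member passed the test between siRE-mod and siMM-mod labels in either line (edgeR's quasi-likelihood test, Benjamini-Hochberg adjusted p under 0.05), and neither did any other gene, which makes the background 0.0% of the 13608 genes tested in Kasumi-1 and 0.0% of the 13628 tested in SKNO-1. The lowest adjusted p of a member (edgeR) was 0.252 for Kasumi-1 and 0.466 for SKNO-1. The estimates nevertheless lay on one side. In Kasumi-1, 76 of 78 members had a log2 fold change below 0, against 48.2% of all genes tested, and in SKNO-1 71 of 78 did, against 47.4%. The median log2 fold change of the members was −0.89 for Kasumi-1 and −0.49 for SKNO-1, beside 0.02 and 0.03 over all genes tested.

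At an unadjusted p under 0.05, 71 of 78 members were lower in Kasumi-1, where 12.0% of genes were, and 16 of 78 in SKNO-1, where 2.38% of genes were. None was higher at that p in either line, against 5.85% and 8.3% of genes. All siRE-mod libraries lay below all siMM-mod libraries for 72 of 78 members in Kasumi-1, where 11.8% of genes did, and for 38 of 78 in SKNO-1, where 6.48% did. DESeq2, with the same filter, called 68 members lower in Kasumi-1, where it called 6.97% of genes lower. In SKNO-1 it called only *RPS15* lower, with a log2 fold change of −0.86 and an adjusted p of 0.0437, against 0.132% of genes.

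The edgeR counts rested on the 2 libraries that cross the siRNA labels by *CD34*. With either of them left out, the siMM-mod libraries of that line are those that hold *CD34* and *EPCAM* and the siRE-mod libraries those that lack both, so the siRNA label and the marker split cannot be told apart in the next 2 counts. Without Kasumi-1 siMM-mod replicate 3, 62 of 78 members were lower in Kasumi-1 at an adjusted p under 0.05, where 15.7% of all genes were. Without SKNO-1 siRE-mod replicate 1, 16 of 78 members were lower in SKNO-1, where 8.55% of all genes were. Scaling by library totals alone moved the median of all genes to 0.32 for Kasumi-1 and 0.14 for SKNO-1, and the members then had medians of −0.58 and −0.36.

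**Figure D4:**
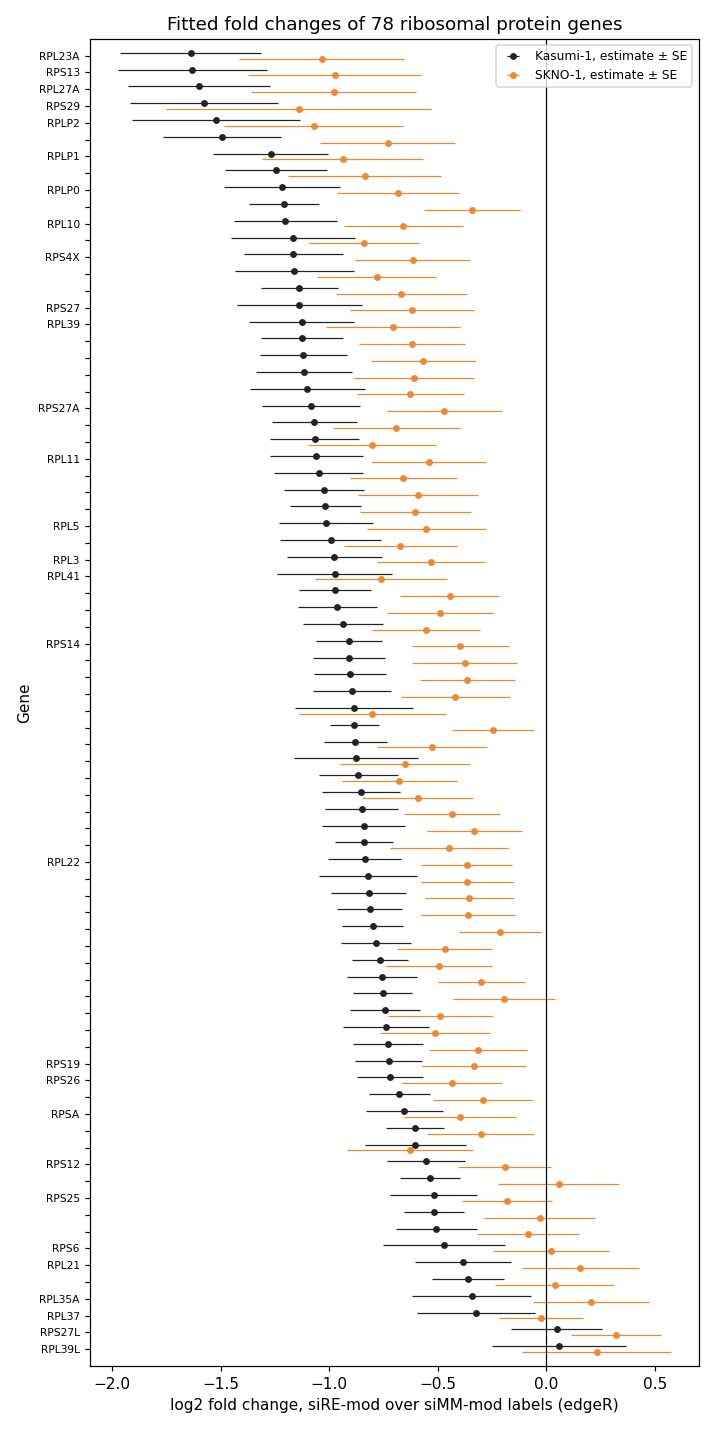
Fitted log2 fold change of siRE-mod over siMM-mod labels (x) with its SE for each of the 78 tested genes (y), black for Kasumi-1 and orange for SKNO-1, ordered by the Kasumi-1 estimate and named for a subset. In Kasumi-1 the estimates run from −1.64 to 0.06 and in SKNO-1 from −1.14 to 0.32.

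The lowest estimates in Kasumi-1 belonged to *RPL23A*, whose protein lines the exit of the nascent chain tunnel, *RPS13* of the small subunit and *RPL27A* of the large one. *RPL23A* (chr17:28719985-28724359, plus strand) lay at 1777, 2192 and 943 normalized CPM in the siMM-mod libraries 1, 2 and 3 of Kasumi-1 and at 488, 551 and 539.9 in the siRE-mod ones, with a log2 fold change of −1.64 ± 0.33 (SE). In SKNO-1 it lay at 1580.4, 1865 and 1271 and at 1207, 563 and 519, with a log2 fold change of −1.04 ± 0.38 (SE). Its groups do not overlap in either line, but SKNO-1 siRE-mod replicate 1 stands well above the other 2 siRE-mod libraries. *RPS13* (chr11:17074388-17077715, minus strand) followed the same pattern, at 2397, 2776 and 1148 against 647, 689 and 707 normalized CPM in Kasumi-1. In SKNO-1 its levels were 1954, 2341 and 1653 against 1630.1, 733 and 645. The log2 fold changes of *RPS13* were −1.63 ± 0.34 (SE) and −0.98 ± 0.40 (SE). *RPL27A* (chr11:8682788-8714759, plus strand) had log2 fold changes of −1.60 ± 0.33 (SE) and −0.98 ± 0.38 (SE). Both genes have the TOP run shown above.

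*RPLP0*, *RPLP1* and *RPLP2* encode the stalk of the large subunit, where translation factors with GTPase activity bind. *RPLP2* (chr11:809965-812880, plus strand) lay at 2341, 3586 and 1288 normalized CPM in the Kasumi-1 siMM-mod libraries and at 829, 709.7 and 976 in the siRE-mod ones. In SKNO-1 it lay at 2374, 2971 and 1930.5 and at 1871, 714 and 857. Its groups are apart in both lines, with log2 fold changes of −1.52 ± 0.39 (SE) and −1.07 ± 0.41 (SE). *RPLP1* had −1.27 ± 0.26 (SE) and −0.94 ± 0.37 (SE), and *RPLP0*, the most abundant of the 3, had −1.22 ± 0.27 (SE) and −0.68 ± 0.28 (SE). The 3 genes had an unadjusted p under 0.05 in both lines.

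*RPS29* (chr14:49570984-49599164, minus strand), a gene of Diamond-Blackfan anaemia, varied most between libraries. It lay at 671, 1399 and 647 normalized CPM in the Kasumi-1 siMM-mod libraries and at 269, 307 and 333 in the siRE-mod ones. In SKNO-1 it lay at 1563, 2393 and 1475 and at 1640.5, 368 and 433, so that siRE-mod replicate 1 is above 2 siMM-mod libraries and the groups overlap. Its log2 fold changes were −1.58 ± 0.34 (SE) and −1.14 ± 0.61 (SE). With all SKNO-1 libraries its adjusted p was 0.514 (edgeR). In SKNO-1 the log2 fold change was −2.20 without siRE-mod replicate 1, with an adjusted p of 0.00472 (edgeR), and −0.76 without siRE-mod replicate 2. In the fit without siRE-mod replicate 1, siRNA label and *CD34* split coincide and cannot be told apart.

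*RPL5* and *RPL11* bind 5S ribosomal RNA, and in their free form they bind MDM2 and so stabilise p53. *RPL5* lay at 2875, 3359 and 2744 normalized CPM in the Kasumi-1 siMM-mod libraries and at 1198, 1886 and 1356 in the siRE-mod ones, without overlap. In SKNO-1 it lay at 2989.8, 3757 and 2572 and at 2596, 2165 and 1572, with overlap. Its log2 fold changes were −1.01 ± 0.22 (SE) and −0.55 ± 0.28 (SE), close to those of *RPL11*, −1.06 ± 0.21 (SE) and −0.54 ± 0.27 (SE). *RPS14*, lost in the 5q− syndrome, had −0.91 ± 0.15 (SE) and −0.40 ± 0.22 (SE). *RPS19* and *RPS26*, both genes of Diamond-Blackfan anaemia, had −0.73 and −0.72 in Kasumi-1, beside −0.33 and −0.43 in SKNO-1. The groups of these 3 genes do not overlap in Kasumi-1, and in SKNO-1 only those of *RPS14* are apart.

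*RPS27A*, which encodes ubiquitin fused to a small-subunit protein, had log2 fold changes of −1.08 ± 0.23 (SE) and −0.47 ± 0.27 (SE). *RPL22*, whose protein binds RNA and is dispensable for the ribosome itself, had −0.84 and −0.37. The X-linked genes *RPS4X* and *RPL10* had −1.17 and −1.20 in Kasumi-1, beside −0.62 and −0.66 in SKNO-1. *RPL41*, which encodes a very small basic protein of the large subunit, had −0.97 and −0.76. *RPL3*, which helps to shape the peptidyl transferase centre, had −0.98 and −0.53. *RPSA*, also known as a laminin receptor precursor, was nearer to 0 at −0.65 ± 0.18 (SE) and −0.40 ± 0.26 (SE).

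In Kasumi-1, *RPS6*, *RPL21*, *RPL35A*, *RPL37*, *RPL17*, *RPS27L* and *RPL39L* were the only tested members with an unadjusted p of 0.05 or more. *RPS6*, the small-subunit protein phosphorylated by the S6 kinases downstream of mTOR, lay at 2076, 2507 and 3825 normalized CPM in the Kasumi-1 siMM-mod libraries and at 1673, 2530.3 and 1819.5 in the siRE-mod ones. In SKNO-1 it lay at 1947, 2650.4 and 1692 and at 1697, 2662 and 2038. Its log2 fold changes of −0.47 ± 0.28 (SE) and 0.02 ± 0.27 (SE) are within 2 SE of 0, and both groups overlap in both lines. *RPL35A* (chr3:197950190-197956610, plus strand), another Diamond-Blackfan gene, lay at 1804, 2597 and 3820.0 normalized CPM in the Kasumi-1 siMM-mod libraries, beside 2046, 2124 and 2268 in the siRE-mod ones. Its SKNO-1 levels were 1998, 2462 and 1749 and 1698, 2914 and 2563, with log2 fold changes of −0.34 ± 0.27 (SE) and 0.21 ± 0.27 (SE). For *RPS6* and *RPL35A* the highest library of all 12 was Kasumi-1 siMM-mod replicate 3, the only siMM-mod library without *CD34*. Such levels differ from those of *RPL23A*, *RPS13* and *RPL27A*, for which that library was the lowest of the 6 labelled siMM-mod.

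The paralogs are expressed far below their partners. *RPS27L*, a p53-responsive relative of *RPS27*, lay at 24.1, 31.9 and 35.4 normalized CPM under siMM-mod and 35.6, 25 and 33.5 under siRE-mod in Kasumi-1, and in SKNO-1 at 27, 31.4 and 28.9 and 28.7, 36.4 and 44.3. *RPS27* lay at 1268, 2465 and 1376 and 776, 700.0 and 841 in Kasumi-1, and in SKNO-1 at 2184, 2715 and 1958 and 2015, 1229 and 1204. The log2 fold changes of *RPS27L* were 0.05 ± 0.21 (SE) and 0.32 ± 0.21 (SE), those of *RPS27* −1.14 ± 0.29 (SE) and −0.62 ± 0.29 (SE). *RPL39L*, a relative of *RPL39* known from testis, ranged from 5.96 to 13.4 normalized CPM, with log2 fold changes of 0.06 ± 0.31 (SE) and 0.23 ± 0.34 (SE) beside −1.13 ± 0.24 (SE) and −0.71 ± 0.31 (SE) for *RPL39*. The estimates of both paralogs turned below 0 in Kasumi-1 when siMM-mod replicate 1 was left out, to −0.09 for *RPS27L* and −0.19 for *RPL39L*. *RPL3L*, the form of striated muscle, reached at most 0.151 normalized CPM. *RPL10L*, known from testis, had 0 counts in all 12 libraries, which allows up to 0.0495 CPM in the shallowest one. Neither was tested, since both fell under the minimum of 600 reads.

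**Figure D5:**
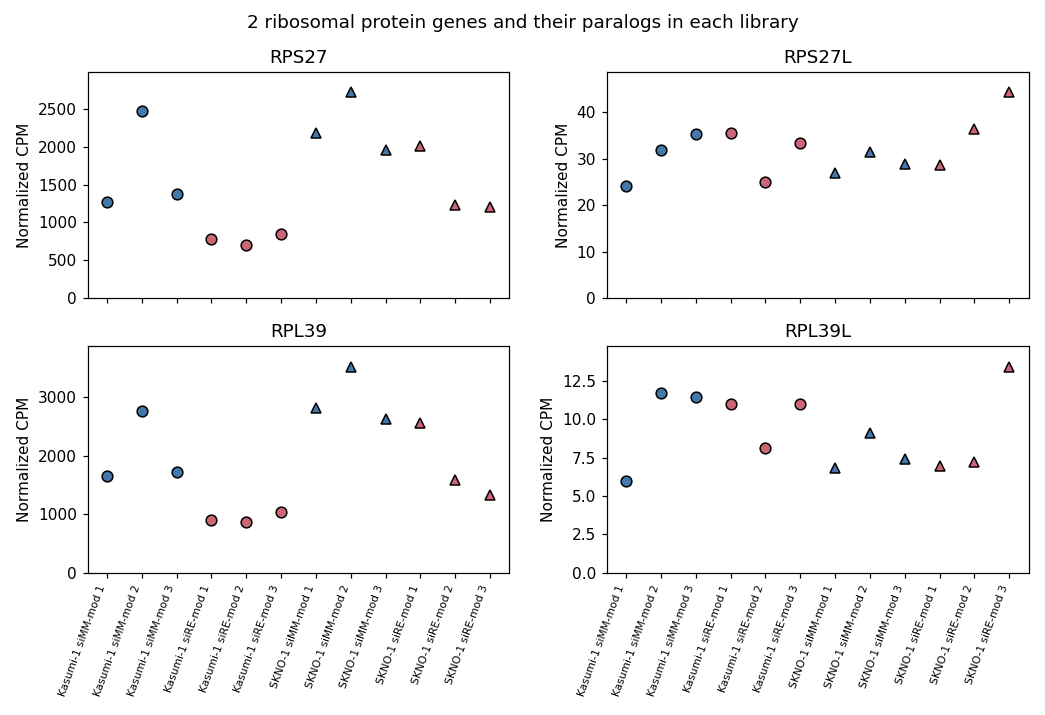
Normalized CPM (y, from 0) of *RPS27*, *RPS27L*, *RPL39* and *RPL39L* in each library (x), with circles for Kasumi-1, triangles for SKNO-1, blue for siMM-mod and red for siRE-mod labels. In Kasumi-1 the red points of *RPS27* (at most 841.5) and *RPL39* lie below the blue ones, while those of the paralogs overlap the blue ones.

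Over the 12 libraries, the SD of log2 CPM of a member had a median of 0.45, beside 0.47 over all 15863 genes with at least 600 reads. The highest library exceeded the lowest by a median of 2.57 times over the 78 members, with a range of 1.77 to 8.89 times. *RPS29* had the largest SD at 1.12, followed by *RPL27A* at 0.842 and *RPLP2* at 0.839. The smallest SDs were those of *RPS27L* at 0.25, *RPS25*, needed for initiation at some viral internal ribosome entry sites, at 0.27, and *RPS12* at 0.28. When each gene was taken as a share of the summed member counts, the median SD of its log2 value was 0.22. On that scale *RPS29* at 0.81 had the least steady share.

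Per kilobase of annotated exon, the authors' FPKM values were highest for *RPS12*, with a median of 5352 over the 12 libraries and a range of 4814 to 7589. Next came *RPS18* with a median of 3002 FPKM and *RPL13A* with 2349, while their ranges, 1772 to 4946 and 2125 to 3714, overlap. These lengths join the exons of all transcripts of a gene and reach 9845 bases for *RPS29*, which lowers its FPKM. By normalized CPM, 71 members had a median of at least 500 over the 12 libraries, and 7 lay between 1 and 400. Among the latter are *RPL17*, *RPS10*, *RPL26* and *RPL36A*, which were chosen after their values were seen. Each of these 4 overlaps another listed gene on its strand, such as *RPL17-C18orf32* or *RPS10-NUDT3*, that itself reached at most 0.313 normalized CPM. Such an overlap was found for 5 of the 7 low members and for 14 members in all. Among the 14 are *RPL13A* and *RPS2*, with medians of 5232 and 2131 normalized CPM, while the low *RPS27L* and *RPL39L* have none. How reads on overlapping genes or on the near-identical pseudogenes were counted is not stated, so these levels are uncertain.

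The difference of the siRNA contrast between the lines was tested as an interaction over 12 libraries, and no member passed (edgeR, background 0.0% of 15863 genes). The interaction estimates of the members had a median of −0.44 on the log2 scale, with 77 of 78 below 0, beside −0.10 over all genes. *RPL26* and *RPS15A* were among those with an unadjusted p under 0.05, each with an adjusted p of 1.0 (edgeR). A larger effect in Kasumi-1 than in SKNO-1 was therefore not shown for any member. Between the lines themselves, 0 members passed with edgeR and 17 of 78 had an unadjusted p under 0.05, as did 2048 of all 15863 genes. Of these, 9 were higher in Kasumi-1 and 8 lower. DESeq2 called *RPL18* and *RPS19* higher and *RPL39* lower in the Kasumi-1 labels, where it called 2.31% of genes. The log2 fold changes by edgeR were 0.55 ± 0.15 (SE), 0.48 ± 0.14 (SE) and −0.75 ± 0.20 (SE). More SKNO-1 than Kasumi-1 libraries hold *CD34*, so line and *CD34* split are partly mixed in these values and cannot be told apart.

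Other genes of the translation machinery also had estimates below 0. *RACK1*, a ribosomal protein under another name and a scaffold on the small subunit, had log2 fold changes of −0.95 ± 0.22 (SE) and −0.41 ± 0.23 (SE). Of 17 translation factors and similar genes with a TOP start, 16 were tested. Estimates lay below 0 for all 16 in Kasumi-1 and for 15 in SKNO-1, with medians of −0.97 and −0.49. The edgeR test called 0 of them (15 and 3 at an unadjusted p under 0.05), while DESeq2 called 15 lower in Kasumi-1 and 0 in SKNO-1. Of all genes tested, 12.0% and 2.38% were lower at that unadjusted p, and DESeq2 called 6.97% and 0.132% lower. *EEF1A1*, which brings aminoacyl-tRNA to the ribosome, lay at 24762, 26964 and 16228 normalized CPM in the Kasumi-1 siMM-mod libraries and at 6306, 12461 and 7267 in the siRE-mod ones. *EEF2*, the translocase, had log2 fold changes of −1.60 ± 0.42 (SE) and −0.91 ± 0.39 (SE), and *EIF3F*, a subunit of an initiation factor, −1.31 ± 0.31 (SE) and −0.76 ± 0.29 (SE). *EEF1G* was near 0 counts in every library and was not tested. In the same list *EEF1B2* lay at 329 to 1374 and *EEF1D* at 129 to 210 normalized CPM. Whether reads of *EEF1G* were lost in counting was not tested, so its level is uncertain.

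Genes that build ribosomes did not share that side. Of 30 genes for RNA polymerase I and ribosome assembly, estimates lay below 0 for 10 in Kasumi-1 and for 14 in SKNO-1, with medians of 0.09 and 0.02. With edgeR 0 passed. At an unadjusted p under 0.05, 3 were lower and 2 higher in Kasumi-1 and 3 lower in SKNO-1, and DESeq2 called 1 and 0. *WDR12*, needed to process large-subunit RNA, had −0.95 ± 0.32 (SE) and −0.88 ± 0.30 (SE), and *POLR1D*, a subunit of RNA polymerases I and III, 0.22 ± 0.44 (SE) and 0.81 ± 0.39 (SE). Of 12 regulators, 6 lay below 0 for Kasumi-1 and 7 for SKNO-1, with medians of 0.02 and −0.10. With edgeR 0 of these passed. At an unadjusted p under 0.05, 2 were lower and 1 higher in Kasumi-1 and 0 in SKNO-1, and DESeq2 called 1 and 0. *MYC*, a transcription factor that raises ribosome production, had −0.80 ± 0.21 (SE) and −0.43 ± 0.21 (SE), with normalized CPM of 626, 683 and 513 against 288, 433 and 323 in Kasumi-1. *MTOR* had −0.44 ± 0.39 (SE) and −0.63 ± 0.35 (SE), and *CDKN1A*, a p53 target, 1.76 ± 0.94 (SE) and 1.21 ± 1.53 (SE). The ribosome of mitochondria is encoded by other genes, and of its 77 tested here 35 and 36 were below 0, with medians of 0.01 and 0.04. With edgeR 0 of the 77 passed. At an unadjusted p under 0.05, 10 were lower in Kasumi-1, and in SKNO-1 2 were lower and 1 higher, while DESeq2 called 4 and 0. Beside these lists, 12.0% of all genes tested were lower and 5.85% higher at that p in Kasumi-1. In SKNO-1 2.38% were lower and 8.3% higher. DESeq2 called 6.97% of all genes lower in Kasumi-1 and 0.132% in SKNO-1.

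Some technical values moved between libraries. The 4 genes *FP671120.4*, *FP671120.5*, *FP236383.2* and *FP236383.3* on chromosome 21 took 8.72% of the counts in SKNO-1 siRE-mod replicate 2, 1.92% in SKNO-1 siRE-mod replicate 1, 1.34% in Kasumi-1 siMM-mod replicate 2 and at most 0.362% in the others. Without them in the total, the share of the members in SKNO-1 siRE-mod replicate 2 was 14.7% in place of 13.4%, still below each SKNO-1 siMM-mod library. Genes of the mitochondrial genome took 0.68% to 2.87% of counts. The 1132 listed pseudogenes of ribosomal proteins together took 0.369% to 0.616%, and counting them with the members left every siRE-mod library below every siMM-mod library of its line. The part of these values in the fold changes was not tested.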

How the data were processed

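RNA-seq libraries of Kasumi-1 and SKNO-1 were grouped by the sample labels. The authors trimmed the reads with Trim Galore 0.6.5, aligned them to GRCh38 with STAR 2.7.10a and counted them over exons per gene with Subread 1.6.5. The deposited tables hold raw counts per gene, from 60559466 to 147990959 per library. They also hold CPM and FPKM, which the authors derived from the same counts, and neither was tested. Whether strand was used, and how reads that align to several places were counted, is not given in the sources used here.

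Genes with 600 or more reads, summed over all libraries in a fit, were normalized by TMM and tested with edgeR 4.0.16 in R 4.3.3 (glmQLFit with robust estimation, glmQLFTest), with Benjamini-Hochberg adjustment over all genes and a threshold of 0.05. The fit was tested on simulated data with far less spread between libraries than these fits had (common dispersion 0.197 to 0.246). That trial gives no rate of missed or false calls for these data. Normalized CPM used TMM factors over the 12 libraries, and log2 CPM a prior count of 2. DESeq2 1.42.0, other scalings and filters, a replicate block and each library left out in turn were tried. Members of a role, extremes of SD, of level per kilobase and of fold change were named by rule. The members and lists were chosen with earlier results of these data known. Promoter sequences are from RefSeq. The 4 in vivo libraries were not used in a comparison. No exact permutation test was run, as its two-sided p is at least 0.1 for 3 libraries against 3. Results for some genes are not reported here.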

Additional observations from a re-analysis of the deposited data

How the results depend on the processing

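The share of the members stayed lower under siRE-mod labels in every setting run. Its difference from siMM-mod labels was −6.59 percentage points in Kasumi-1 and −4.37 in SKNO-1. It lay between −7.15 and −5.64 and between −5.44 and −3.30 with 1 library left out. With the 4 *FP* genes left out of the total, a choice made after seeing the data, it was −6.69 and −3.89. The counts of called genes depended on the tool and on single libraries. With edgeR, 0 genes passed in either line (2435 and 1455 genes at an unadjusted p under 0.05), and with DESeq2 1163 in Kasumi-1 and 372 in SKNO-1, of which 68 and 1 were members. For Kasumi-1 against SKNO-1 DESeq2 called 3 members. With 1 library left out, edgeR called 0 to 62 members and 0 to 4250 genes in Kasumi-1, and 0 to 16 members and 0 to 2535 genes in SKNO-1. The highest counts came without Kasumi-1 siMM-mod replicate 3 and without SKNO-1 siRE-mod replicate 1, where siRNA label and *CD34* split cannot be told apart. For the interaction and between the lines 0 members were called with any library left out. The median log2 fold change of the members lay between −0.96 and −0.78 in Kasumi-1 and between −0.64 and −0.32 in SKNO-1 with 1 library left out. It was −0.58 in Kasumi-1 with library totals alone. The median SD of log2 CPM was 0.22 when each member was taken as a share of the member counts, and 0.42 to 0.47 with 1 library left out. The cause of these shifts was not tested.

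Among single members, *RPS27L* in Kasumi-1 was at −0.0084 with filterByExpr and ranged from −0.092 to 0.19 with 1 library left out. *RPL39L* lay between −0.19 and 0.23 in Kasumi-1 and between −0.10 and 0.37 in SKNO-1, and *RPS6* between −0.17 and 0.21 in SKNO-1. The other members chosen by the naming rule kept their sign in these settings. Signs were not followed gene by gene for the rest, and over all 78 tested members the number below 0 in SKNO-1 was 71, and 68 with library totals alone. With the replicate number as a block, 0 genes were called in either line and the members had medians of −0.89 and −0.49. The labels do not say whether same-numbered libraries belong together. Their deviations from the group means correlated at −0.29 to −0.03 in Kasumi-1 and at −0.24 to −0.03 in SKNO-1. With 3 libraries per group, of which some cross the *CD34* split, these values cannot decide it. The block changed no call.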

Other observations

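Pseudogenes of ribosomal proteins had fold changes mostly below 0. Of 1132 listed, 695 had a read in any library and 122 at least 600 reads over the 12 libraries. In Kasumi-1, 72 of 82 tested had a log2 fold change below 0, with a median of −0.86, and in SKNO-1 72 of 88, with a median of −0.45. With edgeR 0 passed in either line. At an unadjusted p under 0.05, 53 were lower in Kasumi-1, and in SKNO-1 6 were lower and 4 higher. DESeq2 called 42 and 0 lower. Of all genes tested, 12.0% in Kasumi-1 and 2.38% in SKNO-1 were lower at that unadjusted p, and 8.3% higher in SKNO-1. DESeq2 called 6.97% and 0.132% of all genes lower. Reads of the genes can align to these copies, and how such reads were counted is not given in the sources used here.

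Ribosomal-protein-like genes outside the naming rule, *RPL22L1*, *RPL26L1*, *RPL7L1* and *RPL36AL*, had medians of 0.05 for Kasumi-1 and 0.07 for SKNO-1, with 2 of 4 estimates below 0 in each line. *RPL22L1*, the paralog of *RPL22*, had log2 fold changes of 0.34 ± 0.29 (SE) and 0.31 ± 0.26 (SE), beside −0.84 and −0.37 for *RPL22*. No gene of this list passed the edgeR test, had an unadjusted p under 0.05 or was called by DESeq2.

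In the 4 libraries from Kasumi-1 cells harvested from mice, all 80 members are listed at 0. Only 5571 to 10266 reads of each of these libraries lie on any gene, 0.020% to 0.0335% of its reads. With so few reads on genes, and none on genes that took 11.9% to 20.9% of the counts in vitro, these zeros give no level of the members and no limit on it.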
